A study of Homo sapiens with 4 samples.

Results

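Of the 33 genes of cholesterol and fatty acid synthesis that the sterol regulatory element-binding proteins (SREBPs) drive, 30 had at least 1 probe set whose annotation names that gene alone, among 11963 genes so named on the array. The 30 genes were measured by 61 probe sets. The members were chosen by symbol, current or older, and every such probe set was used. FDFT1, CYP51A1 and FADS1 had none: CYP51A1 and FADS1 were listed only together with another gene. Of the 61 probe sets, 56 passed the filter on dim signals and were tested. They stood for 29 genes, 15 of the sterol branch, 10 of the fatty acid branch and 4 regulators. The 5 dim probe sets left out were the only one of MVD and further ones of LSS, SC5D, ME1 and FASN.

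The RNA came from LNCaP, an androgen-responsive prostate cancer cell line kept in medium with fetal bovine serum. All cells were transfected by lipofection, transiently, either with a vector that expresses MED1 or with the empty vector, and total RNA was taken after 24 hours. MED1 is a subunit of Mediator, the complex that carries signals from transcription factors to RNA polymerase II. Each group had 2 samples, each on its own Affymetrix array, and the comparison asks which transcripts differ in cells given extra MED1. Both groups carry a transfection and a plasmid, and a transient transfection reaches only part of the cells. In such bulk RNA, fewer expressing cells and less RNA per cell cannot be told apart. Whether the duplicates were separate cultures is not stated, and p-values therefore cover only the variation between these arrays, technical or otherwise.

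Cells make cholesterol and fatty acids from the same precursor, cytosolic acetyl-CoA. When sterols run low in the membrane of the endoplasmic reticulum, SCAP carries the SREBP precursors to the Golgi, where they are cut, and the released fragments enter the nucleus and switch on the genes of both branches; INSIG1 holds SCAP back when sterols are plentiful. SREBF2 encodes the form best known for the sterol genes and SREBF1 the forms best known for the fatty acid genes. In prostate cancer cells androgens are known to raise this programme, and SREBPs reach Mediator through another subunit, MED15.

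The promoters of 29 of the 33 genes were in the RefSeq table for GRCh38.p14, as 44 windows of 250 bases before to 50 after a start, since a gene can have several. ACAT2, FDFT1, SQLE and FASN were not among them. On both strands, 3 motifs were searched that SREBPs and their partner NF-Y are known to use: TCACNCCAC, a form of the sterol regulatory element, CACGTG, an E-box, and the CCAAT box. This last motif was in at least 1 window of 21 of the 29 genes (72.4%), against 39.7% of 27305 genes with a window. It was in 13 of 15 sterol genes, 6 of 10 fatty acid genes and 2 of 4 regulators. The E-box was in 5 of the 29 (17.2%, against 8.77%). The sterol regulatory element letters were in SREBF2 and ACSL1 alone (6.90%, against 1.39%). No motif contains another, and overlapping CCAAT matches on opposite strands were counted separately. A match describes the sequence and is no measured binding site, and a missing match says only that those letters are not in the window. The 250 bases before the start are shown for FADS2, the member with the largest difference between the groups, for LSS, with the largest difference of the sterol branch, for NSDHL, which holds 5 CCAAT matches, and for SREBF2, which holds the sterol regulatory element letters; motif matches are in capitals.
FADS2, GRCh38.p14 chr11:61815953-61816202, plus strand: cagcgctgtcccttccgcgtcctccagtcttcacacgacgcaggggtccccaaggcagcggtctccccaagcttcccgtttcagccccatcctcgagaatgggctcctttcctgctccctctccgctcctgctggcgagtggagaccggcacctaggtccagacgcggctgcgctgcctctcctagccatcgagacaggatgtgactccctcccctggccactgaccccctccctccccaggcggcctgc
LSS, GRCh38.p14 chr21:46228775-46229024, minus strand: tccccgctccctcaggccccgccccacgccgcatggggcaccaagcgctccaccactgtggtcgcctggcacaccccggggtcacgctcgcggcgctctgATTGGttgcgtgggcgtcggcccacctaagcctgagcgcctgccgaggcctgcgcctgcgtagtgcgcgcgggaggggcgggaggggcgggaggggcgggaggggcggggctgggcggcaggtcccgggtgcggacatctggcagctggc
NSDHL, GRCh38.p14 chrX:152830813-152831062, plus strand: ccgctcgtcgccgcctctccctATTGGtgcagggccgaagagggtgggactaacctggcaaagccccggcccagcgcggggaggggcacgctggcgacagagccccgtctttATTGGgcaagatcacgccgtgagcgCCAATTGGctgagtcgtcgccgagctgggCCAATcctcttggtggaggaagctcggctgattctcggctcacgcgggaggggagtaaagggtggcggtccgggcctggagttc
SREBF2, GRCh38.p14 chr22:41832855-41833104, plus strand: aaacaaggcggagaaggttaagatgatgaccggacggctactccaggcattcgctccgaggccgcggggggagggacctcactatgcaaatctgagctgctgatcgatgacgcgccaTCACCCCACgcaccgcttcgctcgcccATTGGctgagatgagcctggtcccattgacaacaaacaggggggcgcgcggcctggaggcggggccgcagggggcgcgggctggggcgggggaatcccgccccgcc
No match lies in the FADS2 bases shown, which precede the more upstream of its starts, while its CCAAT match lies after that start. In SREBF2 the element begins 133 bases before the start and a CCAAT box on the other strand 106 bases before it.

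The arrays were alike in overall signal, with medians of 77.4 to 83.2. The transfected gene had 2 probe sets. By one, MED1 read 559 and 807 with the MED1 vector and 292 and 315 with the empty one, a log2 fold change of 1.11 ± 0.16 (SE; limma, Benjamini-Hochberg adjusted p = 0.0344). By the other it read 1172 and 1074 against 1097 and 1011, and the groups overlapped. The call of the first was lost without empty vector replicate 1 (adjusted p = 0.0716) or 2 (0.102), when dim probe sets were kept (0.381) and when the variance trend was dropped (0.357). The 6 markers of luminal prostate cells were all above the filter level of 32.2, with summed signals of 21512 and 22894 with MED1 and 22390 and 24668 with the empty vector, which overlap. Of the 6, KLK3, KLK2, FOLH1 and TMPRSS2 read lower on both MED1 arrays than on both empty vector arrays, while KRT8 and KRT18 overlapped. TMPRSS2 read 1351 and 1459 against 1658 and 1830. Over all tested probe sets, 22.6% lay below in this way. The part of these markers in the results was not tested. Of the basal cell markers, KRT5 read 3.01 to 41.8, with a mean below the filter, and KRT14 read 69.9 to 108, above it. The 5 fat and liver genes and 3 leukocyte genes all had mean signals below the filter. The fat and liver genes summed to 48.3 and 67.4 with MED1 against 54.6 and 89.6, which overlap. The leukocyte genes summed to 50.5 and 35.5 against 28.2 and 32.2, higher with MED1 but with no single signal above 38.9; their part in the results was not tested. The sums for basal cells, endothelium and fibroblasts, each with 1 gene above the filter, overlapped between the groups.

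None of the 56 tested probe sets of the lipid synthesis genes passed the threshold, an adjusted p of 0.05 over all 13329 tested probe sets (limma, Benjamini-Hochberg). Over all tested probe sets 41 passed, or 0.308%, so a count of 0 among 56 is near the background. At an unadjusted p of 0.05, 6 of the 56 passed, where the background was 9.19%. Of these, 2 were higher (background 3.98%) and 4 lower (5.21%). The nearest to the threshold was FADS2, lower in the MED1 samples by 0.66 on the log2 scale. By the brightest tested probe set, 24 of 29 genes (82.8%) lay within 0.2 on the log2 scale of no difference. Over all 56 probe sets of the members, dimmer ones included, 42 did (75.0%), against 70.0% of all tested probe sets. Brightest probe sets are not like the background in noise: the median SE was 0.10 for the 29 and 0.14 for all tested. The 95% interval of 26 of the 29 lay inside a change of 1.5-fold either way. So did that of 46 of the 56 probe sets and of 9148 of all 13329 tested ones. The others of the 29 were FADS2, LSS and SREBF2. The median log2 fold change was 0.03 over the 29 genes. Over the 56 probe sets it was -0.013, near the -0.016 of all tested probe sets.

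**Figure D1:**
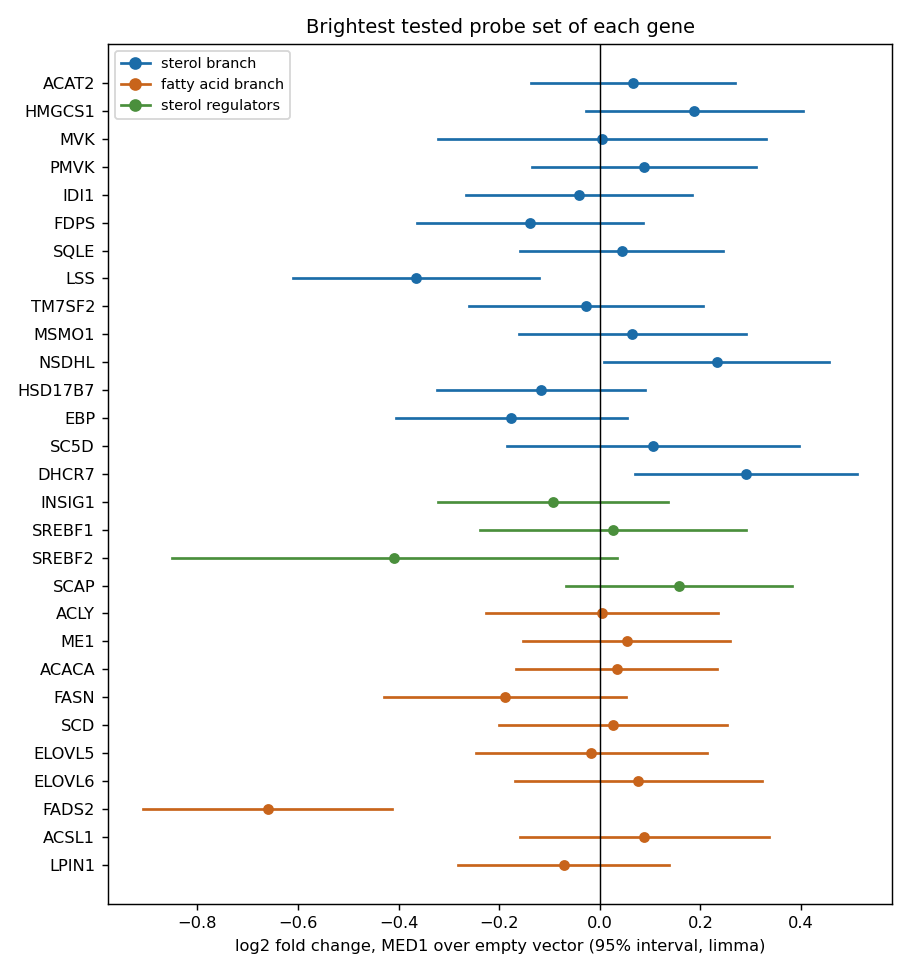
Log2 fold change of MED1 over empty vector (x axis, on the log2(signal + 16) scale) for the brightest tested probe set of each of 29 genes, with limma's 95% intervals as lines and colours for the branch. FADS2 lies farthest from 0, at -0.66, and 24 of the 29 points lie within 0.2 of 0. With the dimmer tested probe sets of these genes included 75.0% do, and of all tested probe sets 70.0%.

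FADS2 encodes the delta-6 desaturase, the first and rate-limiting step from dietary essential fatty acids to long polyunsaturated ones. It has 1 probe set, which read 1075 and 1133 with MED1 and 1603 and 1917 with the empty vector. Both MED1 samples lay below both empty vector samples, and the gap between the groups was wider than the spread within either. With the groups apart, leaving out any 1 array could not turn the sign of the difference. The mean was 1104 ± 40.7 against 1760 ± 222 (SD, n = 2), 1.59-fold lower. The log2 fold change was -0.66 ± 0.11 (SE; 95% interval -0.91 to -0.41; limma, unadjusted p = 0.000184), and the Benjamini-Hochberg adjusted p of 0.0570 missed the threshold. The value stood at the edge of the rule: of 14 alternative settings, 7 passed and 7 did not, with adjusted p from 0.00152 to 0.409 and log2 fold changes from -0.79 to -0.53, all lower. It passed with the replicate number as a block (0.00152), the filter at the 60th percentile (0.0321), robust variance estimates (0.0400) and a pseudocount of 64 (0.0480). It passed without MED1 replicate 1 (0.00854), MED1 replicate 2 (0.00164) and empty vector replicate 1 (0.0295), and did not without empty vector replicate 2 (0.213), the array on which its signal was highest. FADS3, the neighbour of FADS2 on the chromosome, from the wider list, had 2 probe sets. The brighter one read 197 and 222 against 246 and 240, with the groups apart, and the other overlapped (log2 fold change -0.20 ± 0.14 and -0.08 ± 0.17).

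**Figure D2:**
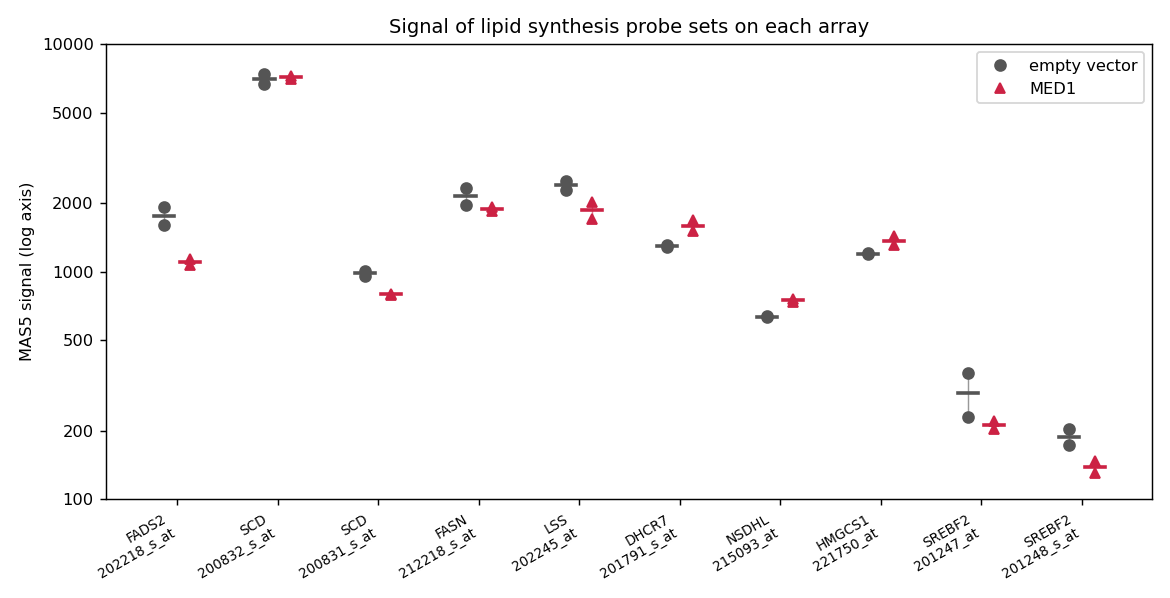
MAS5 signal (y axis, log scale) of 10 probe sets of 8 lipid synthesis genes on each of 4 arrays; points are arrays, horizontal bars group means (n = 2). FADS2 reads 1075 and 1133 with MED1 against 1603 and 1917 with empty vector; heights of different probe sets are not comparable.

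In the sterol branch, 0 of 15 tested genes passed, and the median log2 fold change was 0.04. Of these genes 9 had positive and 6 negative values, from -0.36 for LSS to 0.29 for DHCR7. In the early part, from acetyl-CoA to farnesyl diphosphate, 6 genes lay between -0.14 for FDPS, farnesyl diphosphate synthase, and 0.19 for HMGCS1. HMGCS1, the synthase that makes HMG-CoA, read 1310 and 1430 with MED1 and 1193 and 1206 without it. Those groups did not overlap (0.19 ± 0.10, limma, Benjamini-Hochberg adjusted p = 0.590). Its dimmer probe set read 233 and 278 against 335 and 272, overlapped, and had the opposite sign (-0.24 ± 0.15). ACAT2, the cytosolic thiolase that opens the pathway, gave 0.07, the kinases MVK and PMVK 0.0043 and 0.09, and the isomerase IDI1 -0.04, each by its brightest tested probe set. MVD, the mevalonate diphosphate decarboxylase, was below the filter, at 41.8 and 22.5 with MED1 and 37.2 and 16.4 with the empty vector.

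From squalene to cholesterol, 9 genes were tested. The 3 members of the sterol branch with an unadjusted p under 0.05 (limma) were all here, where 9.19% of all tested probe sets had one. These are few genes, and their place in this part of the branch was not tested. LSS, lanosterol synthase, closes the squalene chain into the first sterol. It read 1709 and 2014 with MED1 and 2289 and 2503 with the empty vector. Both MED1 arrays were lower, though the gap of the groups was smaller than the spread between the MED1 arrays. The difference was -0.36 ± 0.11 (SE; 95% interval -0.61 to -0.12; limma, Benjamini-Hochberg adjusted p = 0.340). A dim second probe set of LSS read 42.7 and 39.5 against 61.3 and 57.7, also lower in both (-0.40 ± 0.23). With the replicate number as a block the brighter probe set passed (adjusted p = 0.0348). Downstream, at the last step of one of the routes to cholesterol, DHCR7, 7-dehydrocholesterol reductase, lay the other way. It read 1505 and 1684 with MED1 against 1315 and 1282, with no overlap (0.29 ± 0.10, 95% interval 0.07 to 0.51, adjusted p = 0.435). Its second probe set overlapped and gave 0.07 ± 0.10. NSDHL, a decarboxylating dehydrogenase that helps remove the methyl groups of lanosterol, read 759 and 738 against 639 and 630 by its brighter probe set. The MED1 samples were both higher (0.23 ± 0.10, adjusted p = 0.520), while the dimmer probe set overlapped and gave 0.04 ± 0.14. The groups of LSS, DHCR7 and NSDHL thus lay apart by their brightest probe sets, in different directions, and none passed. Those of SQLE, HSD17B7 and EBP lay apart too. Of the 9 genes, 3 lay above (33.3%) and 3 below (33.3%). Over all tested probe sets the shares were 17.2% above and 22.6% below. SQLE, the squalene epoxidase and a rate-limiting enzyme of the branch, gave 0.04 by its brightest probe set and -0.01 to 0.07 over 3. The remaining 5 genes, MSMO1, SC5D, EBP, HSD17B7 and TM7SF2, lay between -0.18 for the isomerase EBP and 0.11 for the desaturase SC5D.

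In the fatty acid branch, 0 of 10 tested genes passed, and the median log2 fold change by the brightest probe set was 0.02. FADS2 apart, the 9 genes lay between -0.19 for FASN and 0.09 for ACSL1. FASN, the fatty acid synthase, read 1928 and 1839 with MED1 and 1973 and 2341 with the empty vector. The groups did not overlap, but the nearest arrays were only 1928 and 1973 (-0.19 ± 0.11, 95% interval -0.43 to 0.05, adjusted p = 0.617; limma, Benjamini-Hochberg). The value was -0.067 without empty vector replicate 2 and -0.31 without empty vector replicate 1. ACACA, the carboxylase that commits acetyl-CoA to fatty acids, gave 0.03, ACLY, which makes acetyl-CoA from citrate, 0.0043, and ME1, which supplies NADPH, 0.05. ELOVL5 and ELOVL6, elongases of polyunsaturated and of saturated and monounsaturated chains, gave -0.02 and 0.08. ELOVL6 read 1731 and 1440 against 1471 and 1522, with overlap (0.08 ± 0.11, adjusted p = 0.874; limma, Benjamini-Hochberg). ACSL1, which activates fatty acids by joining them to coenzyme A, read 4640 and 3860 against 4043 and 3916, also with overlap (0.09 ± 0.11, adjusted p = 0.849; limma, Benjamini-Hochberg), and its second probe set gave -0.02 ± 0.11. LPIN1, a phosphatidate phosphatase of glycerolipid synthesis, gave -0.07.

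SCD, the delta-9 desaturase that makes monounsaturated fatty acids, was the only member whose probe sets, 4 here, disagreed in sign with at least 1 at an unadjusted p under 0.05. The brightest read 7015 and 7259 with MED1 and 7370 and 6665 with the empty vector, which overlap (0.03 ± 0.10; limma, Benjamini-Hochberg adjusted p = 0.963). The next read 791 and 801 against 961 and 1004, with the groups well apart (-0.30 ± 0.10, 95% interval -0.51 to -0.08; limma, unadjusted p = 0.0123, Benjamini-Hochberg adjusted p = 0.404). The 2 dimmest read 150 and 148 against 200 and 172, and 152 and 183 against 189 and 227, both without overlap and both lower (-0.28 ± 0.16 and -0.29 ± 0.16). The 3 dimmer probe sets thus read lower with MED1 on every array, while the brightest overlapped. The 3' to 5' ratio of the actin control probes, a measure of RNA integrity, was 9.40 and 9.32 with MED1 and 8.14 and 9.45 with the empty vector, which overlap. That of the GAPDH control probes was much lower, at 1.16 and 1.24 with MED1 and 1.16 and 1.27 with the empty vector, also with overlap. The part of either ratio in these values was not tested.

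The 4 regulators had 7 tested probe sets, and 0 passed. SREBF2 read lower by both of its probe sets: 204 and 221 with MED1 against 229 and 360, and 147 and 130 against 203 and 174. Neither pair of groups overlapped, and the log2 fold changes were alike, at -0.41 ± 0.20 and -0.40 ± 0.16 (limma, Benjamini-Hochberg adjusted p = 0.583 and 0.491). The first rests on 1 array: without empty vector replicate 2 it was -0.10, and without empty vector replicate 1 -0.72. The second lay between -0.51 and -0.29 with any 1 array left out. SREBF1 read 1893 and 2229 against 2189 and 1859, with overlap (0.03 ± 0.12, 95% interval -0.24 to 0.29; limma, Benjamini-Hochberg adjusted p = 0.969). SCAP, the escort protein, read 1106 and 1211 against 1001 and 1072, without overlap (0.16 ± 0.10, adjusted p = 0.651; limma, Benjamini-Hochberg), and lay between 0.09 and 0.22 with any 1 array left out. INSIG1, itself a sensitive target of SREBPs, had 3 probe sets, and on each of them the groups overlapped. The brightest read 5172 and 4694 against 5493 and 5026, the next 2869 and 3079 against 3354 and 2576, and the last 1285 and 1074 against 927 and 1164. The log2 fold changes were -0.09 ± 0.10, 0.02 ± 0.13 and 0.17 ± 0.13 (limma, Benjamini-Hochberg adjusted p = 0.828, 0.984 and 0.727), and the first lay between -0.16 and -0.02 with any 1 array left out. MED15, the Mediator subunit that SREBPs bind, read 133 and 143 against 150 and 151 (-0.12 ± 0.16), and lay between -0.16 and -0.07 with any 1 array left out.

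The branches were set side by side by their brightest probe sets. The median deviation of the genes from their own mean over the 4 arrays was 0.02 and 0.01 with MED1 and -0.0078 and 0.0032 with the empty vector for the sterol branch, so both MED1 arrays lay above both empty vector arrays. For the fatty acid branch it was -0.0094 and -0.03 against -0.01 and -0.02, which overlap. The sterol median was the higher one on all 4 arrays. Each gene's deviations are centred on its own mean over these arrays, so this says nothing of the level of either branch. The same median over all 13329 tested probe sets was -0.01 and -0.0068 with MED1 against 0.0026 and 0.02. Over all tested probe sets, the medians were 0.02 for 26 sterol and -0.07 for 23 fatty acid probe sets, against -0.02 for all 13329. Both MED1 arrays lay below both empty vector arrays on 9 of the 23 fatty acid probe sets (39.1%) and 7 of the 26 sterol ones (26.9%), where the background is 22.6%. They lay above on 2 of the 23 (8.70%) and 5 of the 26 (19.2%), where the background is 17.2%. The 9 came from 5 genes, 3 each from SCD and LPIN1 and 1 each from ACLY, FASN and FADS2, and probe sets of 1 gene share its transcript. Averaging the probe sets of each gene gave medians of 0.02 for the sterol and -0.03 for the fatty acid branch. The branch medians are descriptions over few genes, and the difference between them was not tested.

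**Figure D3:**
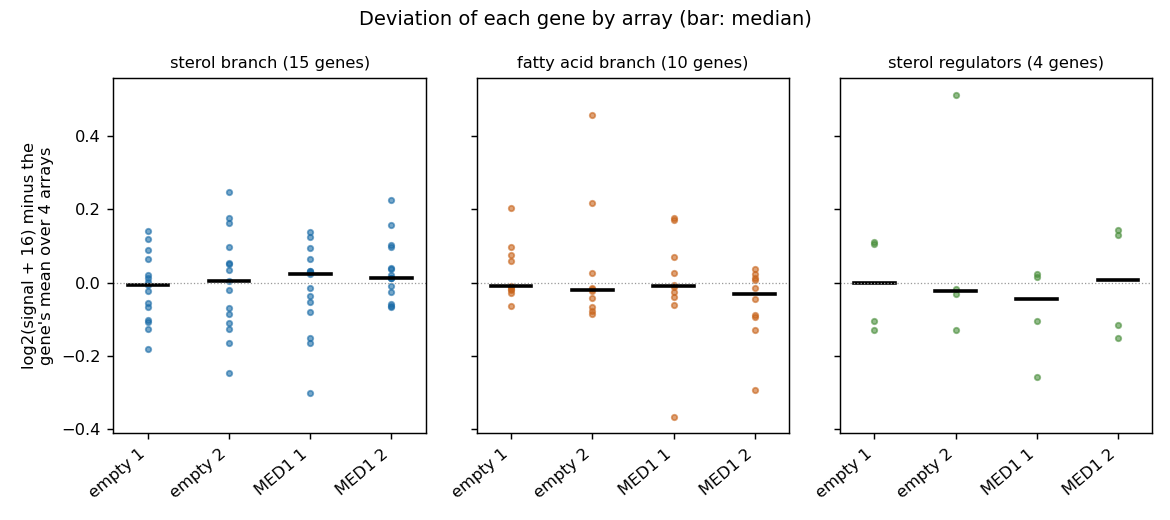
Deviation of each gene's log2(signal + 16) from its mean over the 4 arrays (y axis, log2 units), by array, for the brightest tested probe set of 15 sterol, 10 fatty acid and 4 regulator genes; black bars are medians. Medians lie between -0.04 and 0.02 on all arrays, and the point farthest below in the fatty acid panel on each MED1 array is FADS2.

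Probe sets of 1 gene often disagreed in sign. Of the 18 genes with more than 1 tested probe set, 10 had values of both signs and 8 of 1 sign. LSS, LPIN1, EBP and SREBF2 were negative by every tested probe set, and DHCR7, NSDHL, ME1 and ACACA positive. The widest span was that of ELOVL5, from -0.12 to 0.39, where the high value came from its dimmest probe set, at 52.4 and 49.4 against 35.3 and 35.0. HMGCS1, MVK and SCD also spanned more than 0.3 on the log2 scale. The tested probe sets of IDI1 and HSD17B7, and 1 of SCD, carry the suffix x_at, a kind marked as able to match other transcripts. Many others carry s_at, which marks probe sets shared by several transcripts, among them the only FADS2 probe set.

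**Figure D4:**
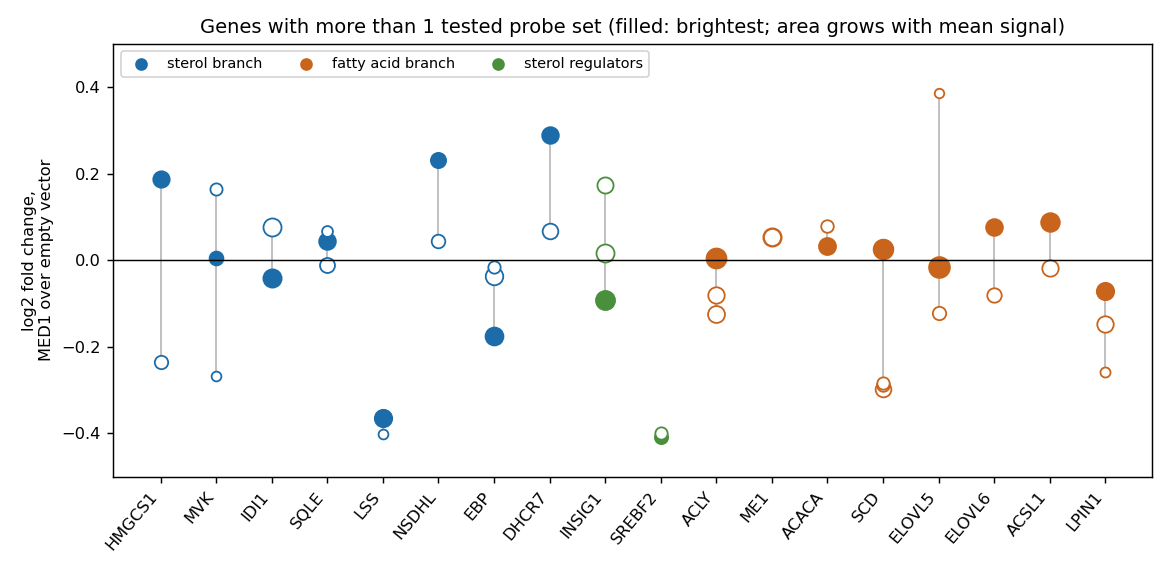
Log2 fold change of MED1 over empty vector (y axis) for every tested probe set of the 18 genes that have more than 1; filled points are the brightest probe set and point area grows with mean signal. Of these genes 10 have points on both sides of 0, and the widest span is that of ELOVL5, from -0.12 to 0.39; the points of ME1 coincide at 0.05.

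A wider list held 62 other genes of sterol, fatty acid and glycerolipid metabolism, of which 48 had a probe set of their own and 42 were tested, by 60 probe sets. None passed (limma, Benjamini-Hochberg), where the background was 0.308%. At an unadjusted p of 0.05, 9 of the 60 passed, where the background was 9.19%. The median log2 fold change by the brightest probe set was -0.05. Both MED1 arrays lay below both empty vector arrays on 24 of the 60 and above on 8 (13.3%), beside the backgrounds of 22.6% and 17.2%. The 3 of lowest p were SOAT1, MID1IP1 and VLDLR. SOAT1, which esterifies cholesterol for storage, read 819 and 568 with MED1 and 469 and 384 with the empty vector, both higher (0.66 ± 0.17, limma, Benjamini-Hochberg adjusted p = 0.268). It passed with the replicate number as a block (0.00915). Its value was 0.92 without MED1 replicate 2 and 0.41 without MED1 replicate 1. MID1IP1, an activator of acetyl-CoA carboxylase, read 659 and 665 against 835 and 844, with little spread in either group (-0.34 ± 0.10, adjusted p = 0.328). VLDLR, a lipoprotein receptor, read 162 and 152 against 217 and 224 (-0.45 ± 0.14, adjusted p = 0.402).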

How the data were processed

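Steady-state RNA was measured on 4 arrays, 2 per group. The deposited values are linear signal intensities for each probe set, made with MAS5 (version unstated), per the submitters' processing notes. From the values, all arrays share one scale: the mean after trimming 2% at each end was 500.2 on each, so no scaling was added. No detection calls were used, so dim signals have no known background, and precision is limited by the number of arrays.

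Groups came from the titles. GEO's description field gives the MED1 vector for all 4 samples and was set aside, since title, source and transfection fields all say otherwise for the controls. Of 22277 probe sets, 62 controls were left out. Of the other 22215, 19064 named 1 gene, 1043 several and 2108 none; symbols were updated by Entrez ID through RefSeq (GRCh38.p14, names alone). Signals became log2(value + 16), which understates changes of weak genes. Probe sets with a mean signal under the 40th percentile (32.2) were left out, 8886 in all, leaving 13329. These were fitted with limma 3.58.1 in R 4.3.3 (eBayes with an intensity trend), two-sided, adjusted by Benjamini-Hochberg at 0.05; intervals are limma's 95%. An exact permutation test of 2 against 2 cannot go below 0.333. The procedure was tested on simulated data, in 10 simulations with normal noise of the fitted variance and 200 changed probe sets each. It recovered 55% of 1.5-fold and 91% of 2-fold changes. Of its calls 7.93% were false, above the 0.05 that the threshold allows.

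The members, lists and rules were chosen with earlier results of these data known. All members are named; full values are given for passing probe sets, the 4 largest differences in each branch, the regulators, members whose probe sets disagree in sign with 1 at an unadjusted p under 0.05, MED1 and MED15, and the passing, otherwise the 3 lowest-p, genes of the wider list. Other per-array values are given for context. Same-numbered samples deviated together at r = 0.12, over 2 pairs, too few to treat the numbers as pairing.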

Additional observations from a re-analysis of the deposited data

How the results depend on the processing

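With the replicate number as a block, 230 probe sets passed over all tested in place of 41, 2 of the members (FADS2 and LSS) and 1 of the wider list (SOAT1); the shared numbers are no known pairing. Over all tested, 0 passed with no filter (limma; 1680 at an unadjusted p of 0.05) and 7 without the variance trend. Members passing were 1, FADS2, with a pseudocount of 64, the 60th-percentile filter or robust eBayes. With 1 array left out, where the lone sample is assumed to vary like the other group, 25 to 215 passed over all tested, 0 to 1 of the members and 0 to 1 of the wider list. The median log2 fold change of the sterol branch was 0.066 with median centring, 0.054 with no filter, 0.018 with probe sets averaged and 0.019 to 0.033 with an array left out. That of the fatty acid branch was 0.037 with centring, 0.0031 with quantile normalization, -0.034 with probe sets averaged and -0.023 to 0.043 with an array left out. The regulators gave 0.029 with probe sets averaged and -0.095 to 0.040 with an array left out. Leaving out an array turned the sign, without a call, for SREBF1 (-0.091 to 0.14), the brightest SCD probe set (-0.047 to 0.098), ELOVL6 (-0.055 to 0.21) and ACSL1 (-0.044 to 0.22). None of the 14 member probe sets at 0.2 or more turned sign in the settings that tested them. The 60th-percentile filter tested 8 of them. For most of the 14 the groups did not overlap, so leaving out 1 array could not turn their sign. Settings that changed only the filter, the variance estimate or the block left the fold changes as they were. The lack of turned signs therefore adds no support to these values. A filter on the mean log2 signal, chosen after the data were seen, gave 39 calls and 0 members. The cause was not tested.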

Other observations

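Some probe sets list a member together with another gene and were kept out of the counts above; they are given as measured and assigned to neither gene. The 3 that list FADS1 and MIR1908 all had both MED1 samples below both empty vector samples, where 22.6% of all tested probe sets did. These 3 list the same genes and may share a transcript. They read 1319 and 1238 against 1513 and 1767, 946 and 1037 against 1115 and 1306, and 1228 and 1269 against 1300 and 1452. The log2 fold changes were -0.35 ± 0.11, -0.28 ± 0.11 and -0.14 ± 0.10 (SE; limma, Benjamini-Hochberg adjusted p = 0.352, 0.480 and 0.702), so 0 passed. The 2 that list CYP51A1 and LRRD1 overlapped between the groups, at 0.12 ± 0.14 and 0.07 ± 0.12.

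FADS1 and FADS3 flank FADS2 among the protein-coding genes of RefSeq. Values of further genes on either side, chosen after those of FADS2 were seen, are given without a test of the difference from it. FEN1, a flap endonuclease of DNA replication, read 3882 and 3843 with MED1 against 4154 and 4524 by one probe set (-0.17 ± 0.09) and 1027 and 1008 against 1006 and 998 by the other (0.02 ± 0.09), so the groups lay apart in opposite directions. MYRF, dim, overlapped by both tested probe sets (-0.08 ± 0.30 and -0.16 ± 0.34), and BEST1 was below the filter. TMEM258 read 7264 and 7420 against 7320 and 8138 (-0.07 ± 0.10), with overlap. RAB3IL1, at 36.0 and 38.7 against 45.5 and 51.8, was dim, and lower in both MED1 samples (-0.28 ± 0.25).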
